A study of Saccharomyces cerevisiae with 24 samples.

Results

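The SNZ and SNO genes of budding yeast (Saccharomyces cerevisiae) are the 6 genes SNZ1, SNZ2, SNZ3, SNO1, SNO2 and SNO3, taken by their gene symbols from a table of 7126 genes. All 6 were found and all 6 passed the filter on low values. They were selected with their levels in these libraries known, so their levels and fold changes below are a description and carry no test. The cells were of strain CEN.PK and of 4 genotypes. The rph1Δ cells lack the H3K36 demethylase Rph1, the set2Δ cells lack the H3K36 methyltransferase Set2, the cells labelled H3K36A have K36A at HHT1 and at HHT2, the genes for histone H3, per the labels, and WT cells carry none of these changes. Cells of each genotype were taken in log phase in the rich medium YPL (0 h), and 1 h and 3 h after they had been washed and moved to the minimal medium SL. The 12 groups held 2 RNA sequencing libraries each. Whether these came from separate cultures, or how many clones stood for each strain, is not stated, so the errors measure the spread between these libraries, which may be technical.

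Snz proteins form the synthase subunit of the enzyme that makes pyridoxal 5′-phosphate, the active form of vitamin B6, and Sno proteins are its glutaminase subunit, which releases ammonia from glutamine. Each SNZ gene lies head to head with an SNO gene, so that a pair shares the stretch of DNA between the start codons. In earlier work on yeast, SNZ1 and SNO1 are known for induction near stationary phase and when amino acids are short, and the SNZ2, SNZ3, SNO2 and SNO3 genes near chromosome ends are tied to thiamine synthesis. The Thi5 family of enzymes uses pyridoxal 5′-phosphate as a substrate for the pyrimidine part of thiamine.

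On the sacCer3 build, SNO1 (YMR095C) lies on the minus strand of chromosome XIII from 457285 to 457959 and SNZ1 (YMR096W) on the plus strand from 458408 to 459301, with 448 bases between them. SNO2 (YNL334C, minus strand, 12208 to 12876) and SNZ2 (YNL333W, plus strand, 13267 to 14163) lie 390 bases apart on chromosome XIV, with 12207 bases to the left end of the chromosome. SNO3 (YFL060C, minus strand, 10301 to 10969) and SNZ3 (YFL059W, plus strand, 11363 to 12259) lie 393 bases apart on chromosome VI, with 10300 bases to the left end. The coordinates of all 6 genes were identical in RefSeq's R64 annotation, from which the sequences below were read. That reference is not the CEN.PK strain, whose own copies were not read here.

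The SNZ2 and SNZ3 coding sequences were identical at 891 of 897 bases (99.3%) and those of SNO2 and SNO3 at 667 of 669 (99.7%). SNZ1 was 71.1% identical to SNZ2 and 71.3% to SNZ3 over the alignment, and SNO1 was 60.5% identical to SNO2 and to SNO3. Counted from the first base of the start codon, with the SNZ2 base named first, the 6 differences of SNZ3 were C303T, T702C, T750C, T777C, G789A and A796G. The 2 differences of SNO3 from SNO2 were A280T and A314C. The stretches that hold most of these differences are shown because they are what a read must cover to be assigned to a copy. The differing bases are in capitals, bases 691 to 800 of the SNZ coding sequences and 271 to 320 of the SNO coding sequences are given, and the SNO strands are the minus strands.
SNZ2 (chrXIV:13957-14066, R64, plus strand): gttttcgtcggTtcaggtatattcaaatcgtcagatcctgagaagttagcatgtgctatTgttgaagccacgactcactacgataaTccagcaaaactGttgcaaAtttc
SNZ3 (chrVI:12053-12162, R64, plus strand): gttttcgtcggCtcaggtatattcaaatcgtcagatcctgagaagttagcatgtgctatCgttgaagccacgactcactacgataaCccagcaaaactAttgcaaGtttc
SNO2 (chrXIV:12557-12606, R64, minus strand): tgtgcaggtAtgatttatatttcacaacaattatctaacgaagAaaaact
SNO3 (chrVI:10650-10699, R64, minus strand): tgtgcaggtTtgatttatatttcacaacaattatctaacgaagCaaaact
Of all stretches of 100 bases within the coding sequence, 63.2% were the same in SNZ2 and SNZ3 and 76.5% were the same in SNO2 and SNO3. For stretches of 150 bases the shares were 53.7% and 64.6%. The sources used here do not say how reads that match both copies were counted, so the separate levels of SNZ2 and SNZ3, and of SNO2 and SNO3, are uncertain. The SNZ1 and SNO1 levels do not have this limit.

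The stretch before the SNZ start codon is shown because it lies between each divergent pair, and SNZ1 moved apart from SNZ2 and SNZ3. The window runs from 350 to 101 bases before the start codon, on the plus strand. Capitals mark the letters TGACTC, the core that the amino acid regulator Gcn4 is known to bind, searched on both strands (as TGACTC or GAGTCA).
SNZ1 (chrXIII:458058-458307, R64, plus strand): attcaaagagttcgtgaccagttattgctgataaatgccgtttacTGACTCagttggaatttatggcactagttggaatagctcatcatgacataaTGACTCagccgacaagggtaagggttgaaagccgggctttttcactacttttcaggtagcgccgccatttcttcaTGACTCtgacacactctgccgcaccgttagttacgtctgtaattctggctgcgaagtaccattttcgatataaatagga
SNZ2 (chrXIV:12917-13166, R64, plus strand): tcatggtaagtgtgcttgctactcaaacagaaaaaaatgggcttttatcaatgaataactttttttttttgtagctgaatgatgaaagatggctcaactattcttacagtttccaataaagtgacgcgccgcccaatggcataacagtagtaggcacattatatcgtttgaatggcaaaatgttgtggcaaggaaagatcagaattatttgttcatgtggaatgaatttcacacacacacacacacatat
SNZ3 (chrVI:11013-11262, R64, plus strand): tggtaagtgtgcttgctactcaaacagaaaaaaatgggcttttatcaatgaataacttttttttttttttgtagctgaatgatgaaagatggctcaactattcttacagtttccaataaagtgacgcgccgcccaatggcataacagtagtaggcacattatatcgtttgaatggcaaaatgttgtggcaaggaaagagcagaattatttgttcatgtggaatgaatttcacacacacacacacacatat
The SNZ1 window held 3 matches, at 305 to 300, 254 to 249 and 179 to 174 bases before the start codon. These letters were not in the SNZ2 and SNZ3 windows. Among the same windows of 6001 protein-coding genes, 426 (7.1%) held at least 1 match and 6 (0.1%) held 3 or more. SNZ1 and SNO1, which share this DNA, were 2 of those 6. A match is a description of the letters and not a measured binding site. The whole stretches between the genes were 98.5% identical for the SNZ2 and SNZ3 pairs, with 3 mismatches and 3 gap bases.

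The libraries held 6623458 to 7677684 counts each. RPH1 held 8 counts over the 6 rph1Δ libraries, against 3336 over the 6 WT libraries, SET2 held 0 in set2Δ, which allows up to 3, against 1641 in WT, and HHT1 and HHT2 held 5 and 2 in H3K36A, against 16771 and 23721 in WT. These values go against a K36A substitution alone, which would leave both genes transcribed. The histone H4 genes beside them, HHF1 and HHF2, also held 4 and 4 counts over the libraries labelled H3K36A, against 29817 and 14348 over WT. How these cells make H3 and H4 is not given, K36A itself could not be checked in counts, and a change at the H4 genes and K36A cannot be told apart. Below, H3K36A stands for the libraries labelled so. The rph1Δ libraries also differed in mating type genes. The 6 a-cell markers summed to 30.8 to 79.0 CPM (counts scaled by library size and TMM) in rph1Δ, 235 to 541 in set2Δ, 148 to 531 in H3K36A and 186 to 530 in WT, and HMRA1 was at 0 counts in rph1Δ. The 5 alpha-cell markers summed to 246 to 4200 CPM in rph1Δ, 31.1 to 74.1 in set2Δ, 27.9 to 75.1 in H3K36A and 26.7 to 80.0 in WT. Most of these rph1Δ counts came from MF(ALPHA)1 (64398 over the 6 libraries). Not every marker followed the sums. HMLALPHA1, an alpha-cell marker, held only 4 counts over the 6 rph1Δ libraries, against 0 in WT. STE6, an a-cell marker, held 106 to 395 counts a library in rph1Δ, which overlapped 188 to 1012 in WT. This difference in mating type genes and the loss of Rph1 cannot be told apart in any comparison with rph1Δ below.

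Levels are given as the deposited FPKM, which divides a count by gene length and library total, for the libraries labelled 1 and 2 in that order. Fold changes are log2 values ± SE from a model of the raw counts with TMM scaling, which also corrects for the make-up of each library. The SE rests on a spread estimated over all 12 groups, so it is not the spread of the 2 groups compared alone. Where the scaling factors differ, a fold change can therefore differ from the ratio of FPKM values. A gene was called where its adjusted p in that model was under 0.05. Because these are bulk samples, fewer cells with a transcript and less of it per cell cannot be told apart.

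SNZ1, a synthase gene, was low in rich medium and higher in minimal medium in WT cells. Its level there was 34.6 and 28.2 FPKM at 0 h, 90.8 and 98.3 at 1 h and 105.4 and 100.98 at 3 h. SNO1, its glutaminase partner, stood at 2.73 and 2.74 FPKM at 0 h, 11.1 and 9.57 at 1 h and 21.5 and 19.4 at 3 h in WT. For both genes the libraries of the 3 times did not overlap, although the SNO1 values of 0 h rest on 13 and 13 counts. The log2 change from 0 h was 1.49 ± 0.11 at 1 h and 1.91 ± 0.10 at 3 h for SNZ1, and 1.81 ± 0.33 and 3.08 ± 0.30 for SNO1.

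The 4 genes near the chromosome ends went the other way. SNZ2 stood at 240.1 and 215 FPKM at 0 h, 51.6 and 51.6 at 1 h and 50.7 and 58.0 at 3 h in WT. SNZ3 stood at 282 and 273 FPKM at 0 h, 45.6 and 41.0 at 1 h and 61.0 and 55.1 at 3 h. In WT, then, the deposited levels of both genes were several times above SNZ1 in rich medium and below it in minimal medium. If reads that match both copies were dropped, their levels would be too low, so the order in minimal medium is uncertain. SNO2 stood at 47.1 and 46.8 FPKM at 0 h, 16.1 and 24.7 at 1 h and 17.6 and 16.4 at 3 h. SNO3 stood at 43.7 and 45.9 FPKM at 0 h, 19.2 and 15.0 at 1 h and 10.8 and 18.1 at 3 h. For each of the 4 genes both WT libraries of 0 h were above all 4 later WT libraries.

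At 1 h over 0 h in WT the log2 change was -2.24 ± 0.13 for SNZ2, -2.78 ± 0.12 for SNZ3, -1.32 ± 0.20 for SNO2 and -1.48 ± 0.22 for SNO3. Since the copies cannot be separated with certainty, their counts were also summed. The SNZ2 and SNZ3 sum changed by -2.51 ± 0.11 and the SNO2 and SNO3 sum by -1.40 ± 0.15. At 3 h over 0 h the log2 changes were -1.87 ± 0.12 (SNZ2), -2.07 ± 0.11 (SNZ3), -1.27 ± 0.21 (SNO2) and -1.44 ± 0.23 (SNO3). SNZ2 and SNZ3 thus differed more between the media in WT than SNO2 and SNO3 beside them, which was not so for SNZ1 and SNO1. The ratio of SNZ2 to SNO2 FPKM was 2.09 to 3.7 over the 16 later libraries of all genotypes, against 4.6 to 6.08 over the 8 libraries of 0 h, and that of SNZ3 to SNO3 was 1.89 to 5.67 later, against 5.16 to 7.17 at 0 h.

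Of the 6 members, 2 were called higher and 4 lower in WT at 1 h over 0 h, where 37.3% of the 6503 tested genes were called higher and 34.8% lower. The counts were also 2 and 4 at 3 h over 0 h, where 35.6% were called higher and 34.0% lower. At 3 h over 1 h, 4 were called higher (SNZ1, SNZ2, SNZ3 and SNO1) and 0 lower, against 27.4% and 18.7% of all genes. Nothing is read from these counts, since the genes were selected on the same values. The changes at 3 h over 1 h were smaller in WT than those from 0 h, with 0.42 ± 0.09 for SNZ1, 0.37 ± 0.14 for SNZ2, 0.71 ± 0.13 for SNZ3 and 1.27 ± 0.23 for SNO1. The SNZ2 call was lost without either WT library of 1 h or without WT library 2 of 3 h, and the SNZ1 and SNZ2 calls were lost when counts were scaled by library totals alone, a scaling that shifted the median of all genes by -0.27.

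**Figure D1:**
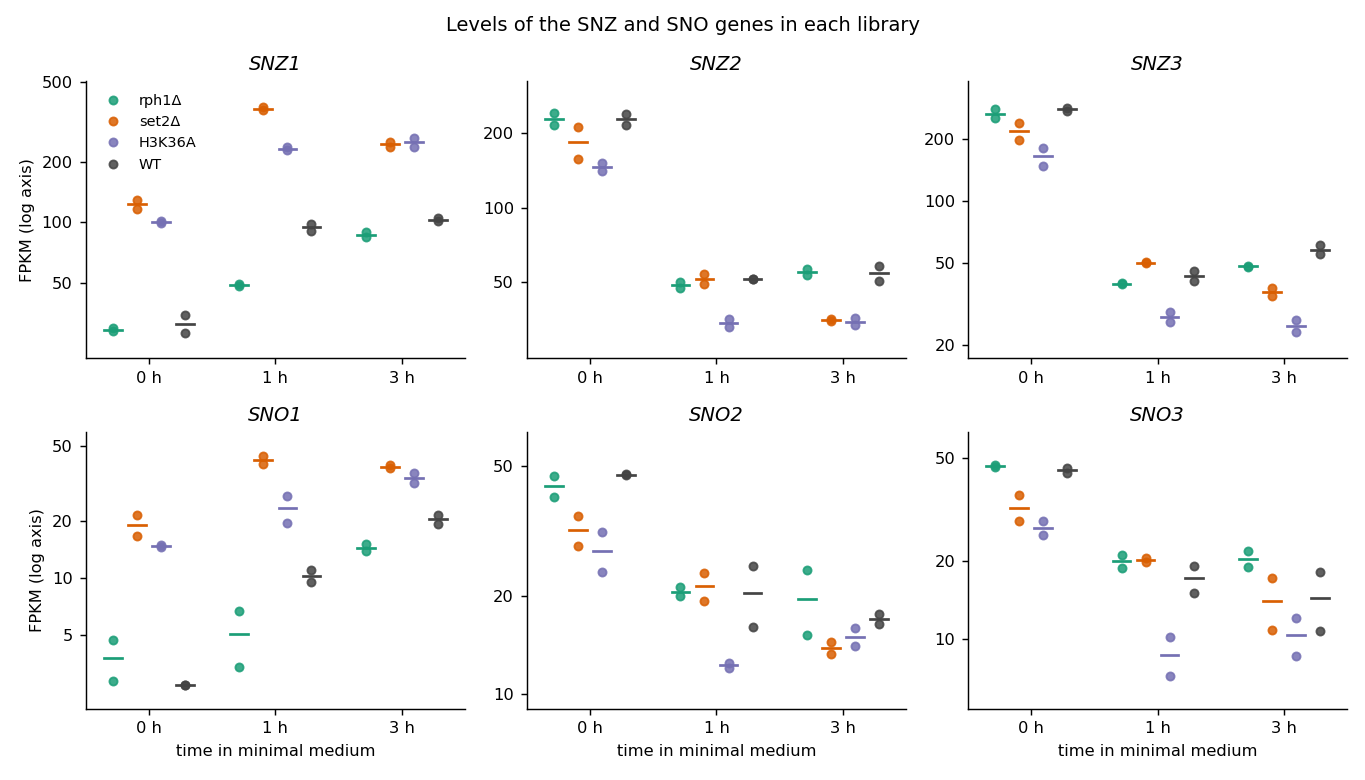
Level of each SNZ and SNO gene (FPKM, log axis) at 0 h, 1 h and 3 h for rph1Δ, set2Δ, H3K36A and WT. Each point is a library and each bar the mean of 2. SNZ1 reached 373 FPKM in set2Δ at 1 h, while SNZ2 and SNZ3 lay highest at 0 h in every genotype.

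In set2Δ cells SNZ1 was above WT at every time. It stood at 129 and 117 FPKM in set2Δ, against 34.6 and 28.2 in WT, at 0 h. At 1 h it stood at 373 and 361 in set2Δ, against 90.8 and 98.3 in WT, and at 3 h at 238 and 250.5 in set2Δ, against 105.4 and 100.98 in WT. The libraries of the genotypes did not overlap at any time, in FPKM or on the TMM scale. The log2 fold change of set2Δ over WT was 1.95 ± 0.10 at 0 h, 1.74 ± 0.09 at 1 h and 0.99 ± 0.09 at 3 h. SNO1 stood at 16.7 and 21.6 FPKM in set2Δ at 0 h, 40.0 and 43.9 at 1 h and 38.1 and 39.4 at 3 h. All of these were above the WT libraries of the same time, by 2.76 ± 0.30, 1.80 ± 0.22 and 0.67 ± 0.20 on the log2 scale.

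The other 4 genes lay near or below WT in set2Δ cells on the TMM scale. SNZ2 stood at 213 and 157 FPKM in set2Δ at 0 h, 54.1 and 49.0 at 1 h and 34.7 and 35.5 at 3 h. SNZ3 stood at 239 and 197 FPKM in set2Δ at 0 h, 50.5 and 49.9 at 1 h and 37.8 and 34.7 at 3 h. At 0 h and 3 h both set2Δ libraries were below both WT libraries for either gene, by the smallest margin for SNZ2 at 0 h. The log2 fold change over WT was -0.32 ± 0.11, -0.22 ± 0.14 and -0.88 ± 0.14 for SNZ2 at 0 h, 1 h and 3 h, and -0.37 ± 0.10, -0.01 ± 0.13 and -0.92 ± 0.13 for SNZ3. At 1 h the SNZ3 FPKM was above WT, at 45.6 and 41.0, but the TMM-scaled fold change was near 0. The summed counts of SNZ2 and SNZ3 gave -0.90 ± 0.11 at 3 h.

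SNO2 stood at 35.0 and 28.5 FPKM in set2Δ at 0 h, 23.5 and 19.4 at 1 h and 13.3 and 14.4 at 3 h. SNO3 stood at 35.8 and 28.5 FPKM in set2Δ at 0 h, 20.5 and 19.8 at 1 h and 10.8 and 17.2 at 3 h. Both genes lay below WT without overlap at 0 h. At 1 h SNO2 overlapped WT and SNO3 lay just above it in FPKM but overlapped it on the TMM scale, and at 3 h SNO2 lay below WT and SNO3 overlapped it. The log2 fold changes at 0 h were -0.59 ± 0.19 for SNO2 and -0.50 ± 0.20 for SNO3, at 1 h -0.14 ± 0.22 and 0.01 ± 0.24, and at 3 h -0.54 ± 0.24 and -0.30 ± 0.26. In set2Δ at 0 h, 2 members were called higher and 3 lower, against 13.3% and 8.73% of all genes. At 1 h 2 were called higher and 0 lower, against 20.4% and 27.3%, and at 3 h 2 and 2, against 20.6% and 27.8%. The 3 lower calls of 0 h (SNZ2, SNZ3 and SNO2) were all lost without WT library 1 or without set2Δ library 2, and the SNZ2 and SNO2 calls were lost without WT library 2. The set2Δ libraries of 0 h had the largest replicate spread of the 12 groups, with a chi-square per gene (1 degree of freedom, near 1 under sampling noise alone) of 14.9, against 2.72 to 12.8 in the others.

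The libraries labelled H3K36A again had SNZ1 and SNO1 above WT and the other 4 genes below it. SNZ1 stood at 101.1 and 98.8 FPKM in H3K36A at 0 h, 236 and 229 at 1 h and 237 and 264 at 3 h. All 6 values were above the WT libraries of the same time, with log2 fold changes of 1.61 ± 0.10, 1.125 ± 0.09 and 1.045 ± 0.09 at 0 h, 1 h and 3 h. SNO1 stood at 14.5 and 14.9 FPKM in H3K36A at 0 h, 19.5 and 27.3 at 1 h and 31.7 and 36.0 at 3 h, and its log2 fold changes were 2.36 ± 0.31, 1.00 ± 0.23 and 0.49 ± 0.20. For both genes the difference from WT was largest at 0 h, as it was in set2Δ.

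SNZ2 stood at 151 and 141 FPKM in H3K36A at 0 h, 35.4 and 32.8 at 1 h and 33.4 and 35.6 at 3 h. SNZ3 stood at 181 and 148 FPKM at 0 h, 28.8 and 26.0 at 1 h and 23.1 and 26.4 at 3 h. Both genes were below every WT library of the same time. The log2 fold change of H3K36A over WT was -0.70 ± 0.11, -0.77 ± 0.14 and -0.89 ± 0.14 for SNZ2 at the 3 times, and -0.81 ± 0.10, -0.84 ± 0.14 and -1.47 ± 0.14 for SNZ3. Their summed counts gave -0.76 ± 0.10, -0.80 ± 0.12 and -1.16 ± 0.12.

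SNO2 stood at 31.4 and 23.7 FPKM in H3K36A at 0 h, 12.5 and 12.1 at 1 h and 14.0 and 16.0 at 3 h. SNO3 stood at 25.2 and 28.6 FPKM at 0 h, 7.15 and 10.2 at 1 h and 12.04 and 8.56 at 3 h. Both genes were below WT without overlap at 0 h and 1 h, and at 3 h SNO2 lay below WT and SNO3 overlapped it in FPKM but not on the TMM scale, where it was lower. The log2 fold changes were -0.83 ± 0.19, -0.89 ± 0.24 and -0.42 ± 0.24 for SNO2, and -0.80 ± 0.21, -1.16 ± 0.27 and -0.71 ± 0.27 for SNO3. In H3K36A, 2 members were called higher and 4 lower at 0 h, against 13.4% and 11.1% of all genes. The counts were 2 and 4 at 1 h, against 20% (1299 of 6503 genes) and 26.7%, and 2 and 3 at 3 h, against 18.7% and 27.6%. At 0 h the SNO3 call was lost without H3K36A library 1 and the SNO2 call without library 2, at 1 h the SNO2 call was lost without WT library 2, and at 3 h leaving out any of the 4 libraries ended the SNO1 call and leaving out either library 2 ended the SNO3 call.

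In rph1Δ cells the SNZ and SNO genes lay close to WT in rich medium, and SNZ1 and SNO1 were lower than WT after the move to minimal medium. SNZ1 stood at 29.7 and 28.9 FPKM in rph1Δ at 0 h, 48.2 and 49.5 at 1 h and 84.1 and 89.6 at 3 h. At 0 h it lay within the range of WT, and at 1 h and 3 h both libraries were below WT. The log2 fold change of rph1Δ over WT was -0.15 ± 0.12, -1.06 ± 0.10 and -0.38 ± 0.09. SNO1 stood at 4.70 and 2.86 FPKM in rph1Δ at 0 h, 6.75 and 3.41 at 1 h and 13.9 and 15.1 at 3 h, with log2 fold changes of 0.40 ± 0.41, -1.12 ± 0.29 and -0.63 ± 0.22. The values of 1 h rest on 33 and 16 counts in rph1Δ, against 57 and 43 in WT.

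SNZ2 stood at 241 and 217 FPKM in rph1Δ at 0 h, 47.4 and 50.1 at 1 h and 53.6 and 56.4 at 3 h, and SNZ3 at 278 and 251 at 0 h, 39.9 and 39.7 at 1 h and 48.1 and 48.4 at 3 h. The log2 fold changes over WT were -0.05 ± 0.11, -0.19 ± 0.14 and -0.12 ± 0.13 for SNZ2 and -0.12 ± 0.10, -0.23 ± 0.13 and -0.40 ± 0.12 for SNZ3. SNO2 ranged from 15.2 to 46.5 FPKM and SNO3 from 18.8 to 46.8 FPKM over the 6 rph1Δ libraries, and their log2 fold changes lay between -0.17 and 0.36. No member was called in rph1Δ at 0 h by edgeR (0 higher and 0 lower), DESeq2 or limma, where in edgeR's test 2.41% of all genes were called higher and 2.41% lower. At 1 h 0 were called higher and 2 lower (SNZ1 and SNO1), against 5.90% and 9.27%, and at 3 h 0 and 3 (SNZ1, SNZ3 and SNO1), against 11.6% and 16.4%. The SNO1 call of 1 h was lost without WT library 1 or without rph1Δ library 2. At 3 h all 3 calls were lost without rph1Δ library 1, the SNZ3 and SNO1 calls without rph1Δ library 2 or WT library 1, and the SNO1 call without WT library 2. The 3 mutants were set against the same WT libraries.

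**Figure D2:**
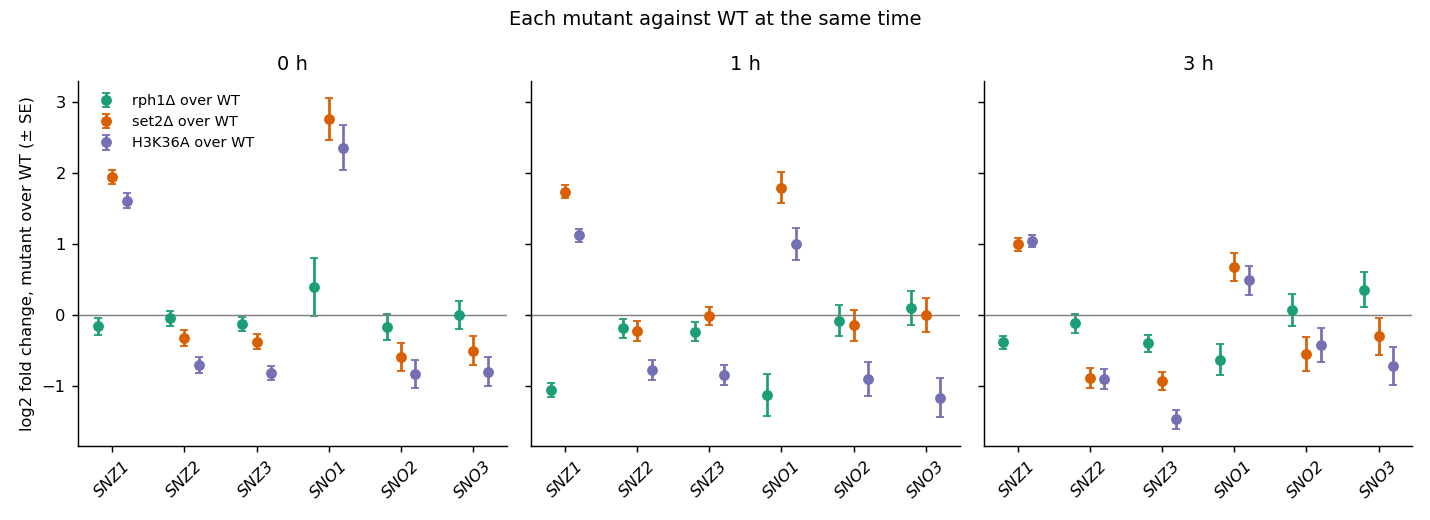
Log2 fold change (± SE) of each member in rph1Δ, set2Δ and H3K36A over WT, at 0 h, 1 h and 3 h. SNZ1 and SNO1 lie above 0 in set2Δ and H3K36A at each time, and the other 4 genes lie between -1.47 and 0.01 in these mutants.

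Each mutant also changed over time from its own level in rich medium. SNZ1 at 1 h over 0 h changed by 0.58 ± 0.11 in rph1Δ, 1.28 ± 0.09 in set2Δ and 1.00 ± 0.09 in H3K36A on the log2 scale, beside 1.49 ± 0.11 in WT. The change in the mutant less the change in WT was -0.90 ± 0.16 in rph1Δ, -0.21 ± 0.14 in set2Δ and -0.49 ± 0.14 in H3K36A. At 3 h over 0 h the difference from WT was -0.23 ± 0.15 in rph1Δ, -0.95 ± 0.14 in set2Δ and -0.57 ± 0.14 in H3K36A. On the log2 scale the set2Δ and H3K36A cells thus began higher and changed less by 3 h. The rph1Δ cells began near the WT level and changed less by 1 h. In FPKM the mean of SNZ1 went from 123 at 0 h to 244 at 3 h in set2Δ. It went from 99.95 to 250.5 in H3K36A, against 31.4 to 103 in WT, so the smaller change is one of ratio. For SNO1 the difference from WT at 3 h over 0 h was -1.02 ± 0.46 in rph1Δ, -2.09 ± 0.37 in set2Δ and -1.87 ± 0.38 in H3K36A. SNZ2 and SNZ3 were lower at 1 h than at 0 h in every genotype, with log2 changes of -2.14 to -2.39 for SNZ2 and -2.42 to -2.89 for SNZ3.

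Ordered by mean FPKM, SNZ1 was lowest in rph1Δ at 0 h (29.3 FPKM), followed by WT at 0 h (31.4), rph1Δ at 1 h (48.8) and 3 h (86.9), and WT at 1 h (94.5). H3K36A at 0 h (99.95), WT at 3 h (103) and set2Δ at 0 h (123) came next, and H3K36A at 1 h (233), set2Δ at 3 h (244), H3K36A at 3 h (250.5) and set2Δ at 1 h (367) were highest. In FPKM the libraries of neighbours in this order overlapped for rph1Δ and WT at 0 h, for H3K36A at 0 h and WT at 3 h, and for set2Δ and H3K36A at 3 h. On the TMM scale rph1Δ at 3 h stood above WT at 1 h (85.3 and 82.9 CPM), and their libraries overlapped, as did those of set2Δ at 0 h and WT at 3 h. SNO1 was highest in set2Δ at 1 h in FPKM (41.9) but in set2Δ at 3 h on the TMM scale (26.5 CPM, beside 23.8 at 1 h), and was lowest in WT at 0 h (2.74). SNZ2 and SNZ3 were highest in rph1Δ and WT at 0 h, with 229 and 228 FPKM for SNZ2 and 265 and 277 for SNZ3, where libraries overlapped in FPKM, although those of SNZ3 did not on the TMM scale. They were lowest in H3K36A, at 34.1 FPKM for SNZ2 at 1 h and 24.8 for SNZ3 at 3 h, and on the TMM scale both were lowest there at 1 h.

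SNZ1 made up 5.41% and 5.81% of the summed SNZ FPKM in rph1Δ, 22.3% and 24.8% in set2Δ and 23.4% and 25.5% in H3K36A at 0 h, against 6.22% and 5.46% in WT. At 1 h the shares were 35.6% and 35.5% in rph1Δ, 78.1% and 78.5% in set2Δ and 78.6% and 79.6% in H3K36A, against 48.3% and 51.5% in WT. At 3 h they were 45.3% and 46.1% in rph1Δ, 76.6% and 78.1% in set2Δ and 80.7% and 81.0% in H3K36A, against 48.6% and 47.2% in WT. The genotypes set2Δ and H3K36A lay above WT at each time without overlap, and rph1Δ lay below WT at 1 h and 3 h. The summed SNZ level was 469 ± 12.6 FPKM in set2Δ and 189 ± 1.98 in WT at 1 h (SD, n = 2 each), and 526 ± 78.4 in set2Δ and 536 ± 28.6 in WT at 0 h. A split of shared reads between SNZ2 and SNZ3 would leave these shares as they are, but if such reads were dropped, the SNZ1 shares would be too high, and which was done is not known.

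**Figure D3:**
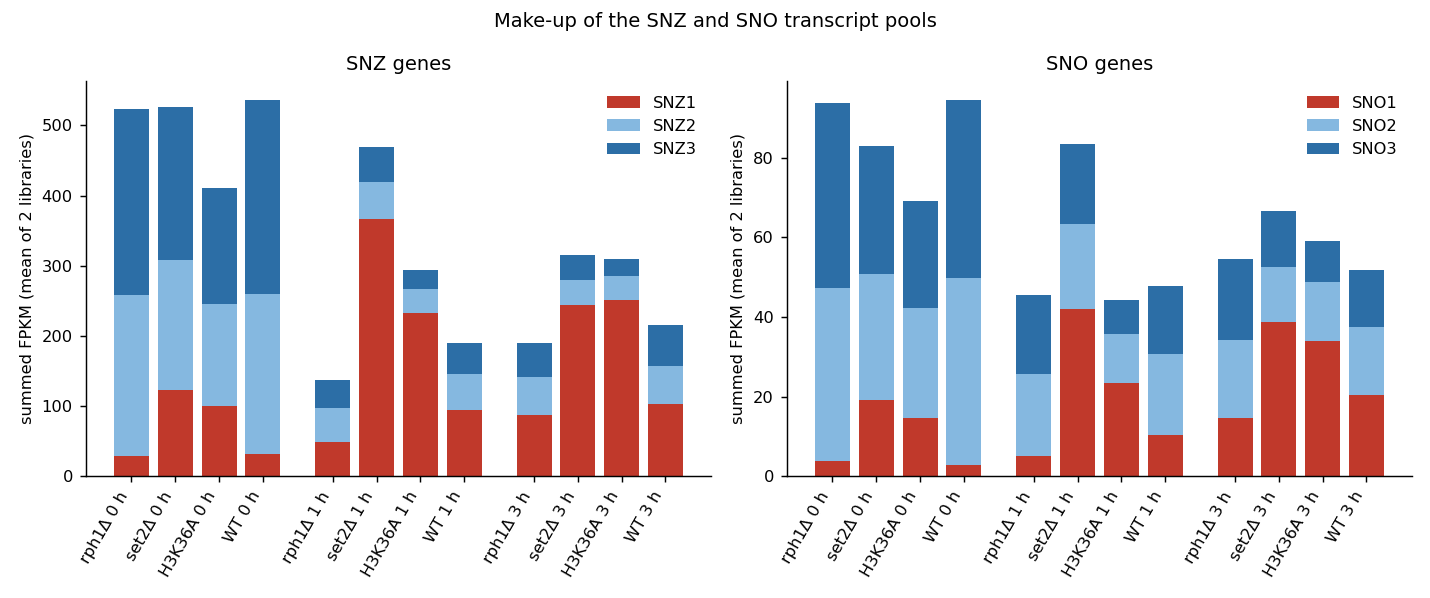
Summed FPKM (mean of 2 libraries) of the SNZ genes and of the SNO genes, stacked by gene, for rph1Δ, set2Δ, H3K36A and WT at 0 h, 1 h and 3 h. SNZ1 makes up most of the SNZ bar in set2Δ and H3K36A at 1 h and 3 h, and a small part of each bar of rph1Δ and WT at 0 h.

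The genes on either side of the pairs, the 2 nearest on each side, were tested. Beside SNZ1, MTG1, a mitochondrial GTPase gene that lies 122 bases away, was not called in any of the 12 comparisons. Its log2 fold changes in these lay between -0.23 and 0.16. CTF13, a kinetochore gene 23 bases from SNO1, was called in 2 of the 12, higher in set2Δ at 3 h (0.73 ± 0.30, adjusted p = 0.0462) and in H3K36A at 3 h (0.87 ± 0.30, adjusted p = 0.0187). In the comparison where SNZ1 and SNO1 lay highest over WT, set2Δ at 0 h, CTF13 gave -0.31 ± 0.29 (adjusted p = 0.482) and MTG1 0.07 ± 0.12 (adjusted p = 0.734). Farther out, UTP15, a gene of ribosomal RNA processing, fell at 1 h over 0 h in WT by 3.85 on the log2 scale, and ATP25 fell by 1.45. At 1 h UTP15 was above WT, as SNZ1 was, by 1.82 ± 0.14 (adjusted p = 9.63e-11) in set2Δ and 1.28 ± 0.15 (adjusted p = 1.14e-07) in H3K36A. It was also above WT in rph1Δ at 1 h (0.62 ± 0.16, adjusted p = 0.00991), where SNZ1 was lower. At 0 h UTP15 gave -0.25 ± 0.09 (adjusted p = 0.0616) in set2Δ and -0.40 ± 0.10 (adjusted p = 0.00229) in H3K36A.

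Near the chromosome ends, the genes beside SNZ2 and SNZ3 did not follow them in WT. THI12, which lies 668 bases beyond SNZ2, rose at 1 h over 0 h in WT by 0.69 ± 0.24 (adjusted p = 0.0118), and THI5, 669 bases beyond SNZ3, by 0.75 ± 0.30 (adjusted p = 0.0259). THI5 and THI12 belong to a near-identical family of genes for thiamine synthesis, so their separate levels are uncertain. On the other side, DDI3, a gene of the cyanamide hydratase family, held 42 and 38 counts in WT at 1 h and 6 and 1 at 0 h. Its near-identical partner DDI2, with which it may share reads, held 5 and 19 counts in WT at 1 h and 0 and 1 at 0 h.

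In rich medium some of these neighbours were higher than WT in set2Δ and H3K36A, and 1 was lower. THI12, beside SNZ2, was lower in set2Δ at 0 h (-0.85 ± 0.28, adjusted p = 0.0315) and was not called in H3K36A (0.07 ± 0.25, adjusted p = 0.897), and THI5 was called in neither. AAD16, a gene of the aryl-alcohol dehydrogenase family beyond THI5, stood at 220 ± 20.6 FPKM in set2Δ and 165 ± 53.8 in H3K36A, against 19.97 ± 2.43 in WT, at 0 h (SD, n = 2 each). Its log2 fold change over WT was 3.43 ± 0.20 (adjusted p = 1.31e-12) in set2Δ and 2.99 ± 0.20 (adjusted p = 2.62e-11) in H3K36A. AAD14, its relative beyond THI12, was higher by 0.44 ± 0.15 (adjusted p = 0.0328) in set2Δ and by 0.46 ± 0.15 (adjusted p = 0.0213) in H3K36A. DDI3 held 23 and 20 counts in set2Δ and 27 and 22 in H3K36A, against 6 and 1 in WT. DDI2 held 15 and 18 counts in set2Δ and 10 and 10 in H3K36A, against 0 and 1 in WT. Of 2 genes of a family near chromosome ends, COS1 was higher in H3K36A (0.41 ± 0.11, adjusted p = 0.00631) and not called in set2Δ, and COS4 was called in neither.

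**Figure D4:**
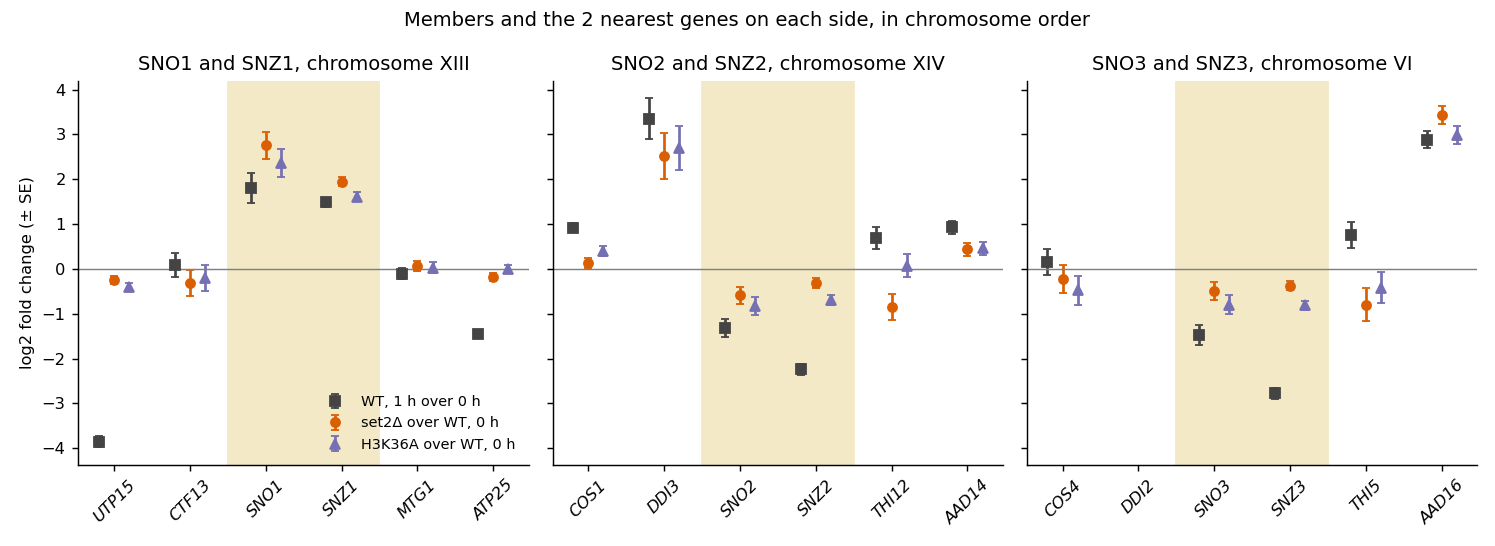
Log2 fold change (± SE) of each SNZ and SNO pair (shaded) and of the 2 nearest genes on each side, in chromosome order, for WT at 1 h over 0 h and for set2Δ and H3K36A over WT at 0 h. DDI2 is left without a point because WT held 0 and 1 counts at 0 h, and the DDI3 points rest on 6 and 1 counts there. SNO1 and SNZ1 stand above MTG1 and CTF13, and SNZ3 stands below AAD16.

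Of the 5 other vitamin B6 genes, 1 rose and 3 fell at 1 h over 0 h in WT, beside 37.3% and 34.8% of all genes. PDX3, which encodes the oxidase that makes pyridoxal 5′-phosphate from its salvage forms, rose to 508 ± 26.5 FPKM at 1 h, against 266 ± 8.58 at 0 h (SD, n = 2 each), a log2 change of 0.83 (adjusted p = 8.12e-08). The kinase gene BUD16 fell by 0.44, its relative BUD17 by 0.36 and YBL036C by 0.50 on the log2 scale, and TPN1, the vitamin B6 transporter gene, gave 0.09 (adjusted p = 0.409). The median of the 5 was -0.36, beside 0.06 over all genes tested. At 0 h 13.3% of all genes were called higher and 8.73% lower in set2Δ, and 13.4% and 11.1% in H3K36A. In these comparisons, where SNZ1 and SNO1 stood far above WT, 0 of the 5 were called higher and 0 lower by edgeR in either mutant. At an unadjusted p under 0.05 edgeR had 1 higher and 2 lower in set2Δ and 0 and 0 in H3K36A, DESeq2 called 0 in either mutant, limma called 1 in set2Δ and 0 in H3K36A, and without set2Δ library 2 edgeR called 1 in set2Δ. In both mutants at 3 h 0 were called higher and 2 lower, PDX3 (-0.67 in set2Δ and -0.47 in H3K36A) and BUD17 (-0.76 and -0.57). Of all genes 20.6% were higher and 27.8% lower in set2Δ at 3 h, and 18.7% and 27.6% in H3K36A.

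Of the 18 thiamine genes, 13 rose and 1 fell at 1 h over 0 h in WT, where 37.3% of all genes rose and 34.8% fell, with a median log2 change of 0.81 beside 0.06 over all genes. THI4, whose product makes the thiazole part of thiamine, stood at 94.8 ± 6.76 FPKM at 1 h and 9.06 ± 1.14 at 0 h (SD, n = 2 each), a log2 change of 3.29 (adjusted p = 1.3e-16). PET18 rose by 1.74 and THI72, a transporter gene, by 1.43. THI80, the thiamine pyrophosphokinase gene, fell by 1.55 (adjusted p = 2.1e-08). SNZ2 and SNZ3, at -2.24 and -2.78 in the same comparison, were lower than each of the 18.

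In H3K36A at 3 h 3 of the 18 thiamine genes were higher than WT and 11 lower, where 18.7% of all genes were higher and 27.6% lower, with a median of -0.68 beside -0.06 over all genes. THI13 stood at 4.30 ± 0.87 FPKM in H3K36A and 16.0 ± 0.00707 in WT, a log2 change of -2.12 (adjusted p = 3.62e-07). THI11 gave -2.07 and THI12 -1.60, all members of the near-identical THI5 family, while THI72 gave 1.46, PDC2, a regulator gene, 0.54 and THI3 0.45. SNZ2 (-0.89) and SNZ3 (-1.47) were lower in this comparison too. In H3K36A at 0 h, where SNZ2 (-0.70) and SNZ3 (-0.81) were also lower, 5 of the 18 were higher and 2 lower (13.4% and 11.1% of all genes), with a median of 0.12 beside 0.00, and without WT library 1 the number called was 4. In H3K36A at 1 h 8 of the 18 were lower, among them THI5, THI11, THI12 and THI13, near-identical copies with uncertain separate calls. In that comparison 6 of the 18 were higher, where 20% (1299 of 6503 genes) of all genes were higher and 26.7% lower. In set2Δ at 0 h 4 were higher and 5 lower, beside 13.3% and 8.73% of all genes (4 called without WT library 2 or set2Δ library 2). At 1 h 5 were higher and 8 lower in set2Δ (20.4% and 27.3% of all genes). At 3 h 3 were higher and 10 lower in set2Δ (20.6% and 27.8% of all genes), with a median of -0.58 beside -0.06. In rph1Δ 1 was higher and 1 lower at 0 h (2.41% and 2.41% of all genes), 0 and 1 at 1 h (5.90% and 9.27%), and 4 and 2 at 3 h (11.6% and 16.4%). Leaving out a library brought these totals of called genes to 0 at 0 h (without WT library 1 or rph1Δ library 1), to 0 at 1 h (without WT library 2) and to 3 at 3 h (without WT or rph1Δ library 2).

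**Figure D5:**
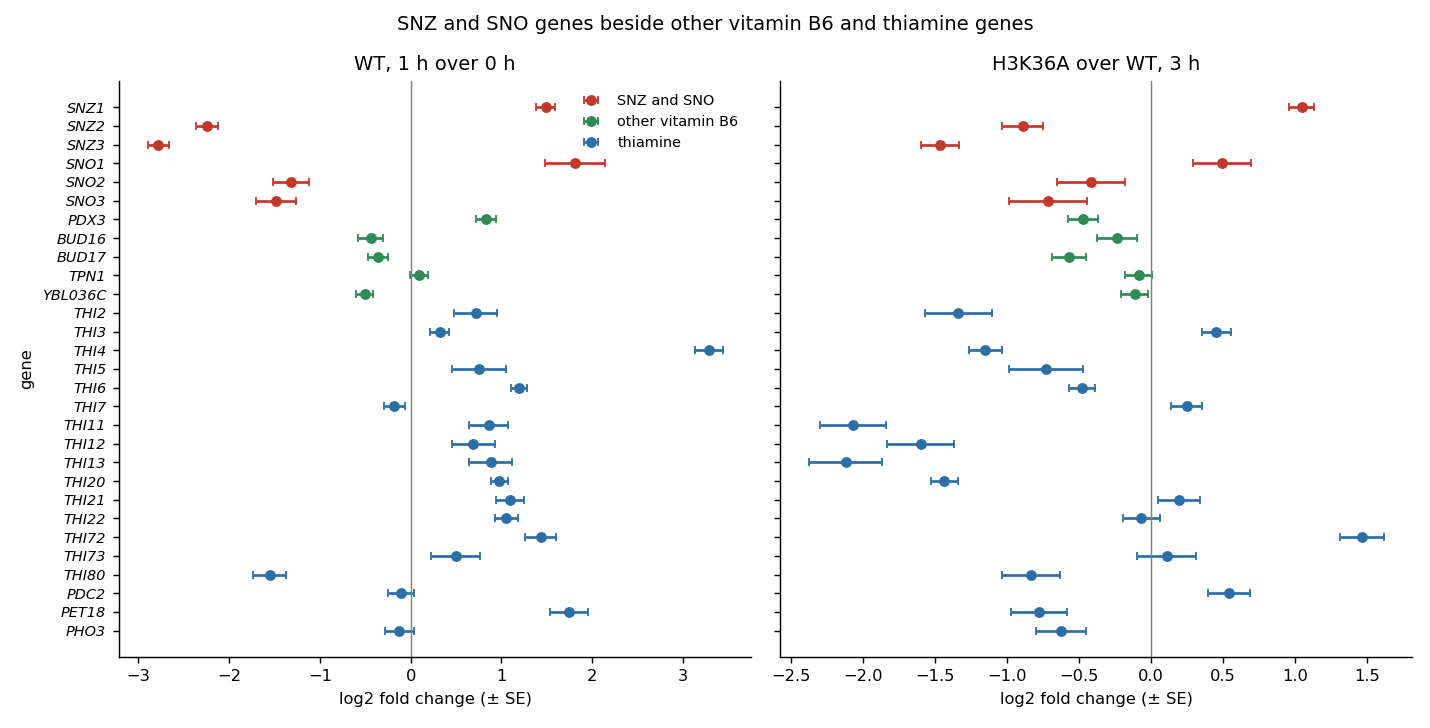
Log2 fold change (± SE) of the SNZ and SNO genes, 5 other vitamin B6 genes and 18 thiamine genes in WT at 1 h over 0 h and in H3K36A over WT at 3 h. THI4 is highest at 3.29 and SNZ3 lowest at -2.78 in WT over time, and THI13 is lowest at -2.12 in H3K36A over WT.

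The 15 genes of Gcn4 and amino acid synthesis did not share a direction in WT, where 6 rose and 7 fell at 1 h over 0 h, beside 37.3% and 34.8% of all genes, with a median of -0.16 beside 0.06 over all genes. ARG3, an arginine synthesis gene, rose by 2.14, LYS1 by 1.58 and HIS5 by 1.00 on the log2 scale. ARG1 fell by 1.38, HIS1 by 0.76 and TRP2 (which overlaps YER090C-A) by 0.69, and GCN4 itself fell by 0.64 (adjusted p = 3.78e-07). In set2Δ at 0 h 9 of the 15 rose and 0 fell, beside 13.3% and 8.73% of all genes, with a median of 0.35 beside 0.00 over all genes. ARG3 rose by 1.36 (adjusted p = 1.21e-07) and ARG1 by 1.34 (adjusted p = 8.39e-13), each less than SNZ1 at 1.95 and SNO1 at 2.76. In H3K36A at 0 h 8 rose and 0 fell (13.4% and 11.1% of all genes), with ARG3 at 1.24 and ARG1 at 0.81. In H3K36A at 1 h, where SNZ1 stood 1.125 above WT, 4 were higher and 5 lower (GCN4, ARG3, HIS1, HIS5 and LYS9). Of all genes 20% (1299 of 6503 genes) were higher and 26.7% lower in that comparison, so no direction is read for the list. At 3 h 5 were higher and 2 lower (GCN4 and HIS5) in H3K36A, beside 18.7% and 27.6% of all genes. The number called at 3 h was 4 without WT library 2 and 12 with library totals or limma. In set2Δ 8 were higher and 1 lower (LYS9) at 1 h, beside 20.4% and 27.3% of all genes. At 3 h 10 were higher and 3 lower (GCN4, HIS3 and HIS5) in set2Δ, beside 20.6% and 27.8%. In rph1Δ at 1 h, where 5.90% of all genes rose and 9.27% fell, 1 rose and 4 fell, GCN4, ARG1, ARG3 and TRP4 (which overlaps YDR354C-A). Of these 5 calls 3 were left without WT library 2 or without rph1Δ library 1. The letters TGACTC were in the same window before the start codon in 12 of the 15 genes, beside 7.1% of 6001 protein-coding genes. They were in 1 of the 18 thiamine genes, 1 of the 5 other vitamin B6 genes and 1 of the 10 stationary phase genes. Since the 15 were listed as genes of Gcn4 and amino acid synthesis, nothing is read from their count.

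All 10 stationary phase genes rose at 1 h over 0 h in WT, where 37.3% of all genes rose, with a median log2 change of 4.38 beside 0.06 over all genes. GRE1 rose by 9.31, SPG1 by 8.25 and SPG4 by 7.06, where SNZ1 gave 1.49. In set2Δ at 0 h 8 of the 10 rose and 0 fell, beside 13.3% and 8.73% of all genes, with SPG1 at 1.41, SSA3, an Hsp70 chaperone gene, at 1.21 and RTC3 at 1.13, and without set2Δ library 1 the number called was 5. In H3K36A at 0 h 6 rose and 0 fell (13.4% and 11.1% of all genes), and in rph1Δ at 0 h 0 rose and 4 fell (2.41% and 2.41%). At 3 h 0 of the 10 were higher and 8 lower in set2Δ (20.6% and 27.8% of all genes), and 0 and 6 in H3K36A (18.7% and 27.6%). In these comparisons SNZ1 stood at 0.99 and 1.045 above WT.

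Across the 12 group means of log2 CPM, levels within a pair moved together. Pearson's r was 0.967 for SNZ1 and SNO1, 0.966 for SNZ2 and SNO2 and 0.939 for SNZ3 and SNO3, and it was 0.994 for SNZ2 and SNZ3, which may share reads. SNZ1 gave -0.681 with SNZ2 and -0.644 with SNZ3. These values describe 12 points that share media, genotypes and libraries. Of 5685 genes ranked, those most like SNZ1 were YDL094C (0.982), SNO1 (0.967), YKL075C (0.964), YNL277W-A (0.957) and BPH1 (0.957). YDL094C and YKL075C overlap other genes (PMT5 and PSY1), so their counts are uncertain, and YNL277W-A rests on low levels with a wide spread, at 4.14 ± 3.73 FPKM in WT at 0 h (SD, n = 2). Most like the summed SNZ2 and SNZ3 were COM2 (0.989), PEX13 (0.986), YDL241W (0.982), YJL218W (0.982) and AIM1 (0.98) of 5684 genes, with SNO2 at rank 76, SNO3 at rank 257 and SNZ1 at rank 3991.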

How the data were processed

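RNA sequencing of 24 libraries gave 1 deposited table of 7126 genes. It holds raw counts per gene, and FPKM that the authors computed, per the file headers. Dividing each count by exonic length and library total gave the deposited FPKM in 100% of cases, within 0.0051. Build sacCer3 and the tools HTSeq 0.6.1, HISAT2 2.0.1 and cutadapt 1.9.1 stand in the submitters' processing notes. The sources used here give no settings, no strand and no rule for reads with several matches. Groups came from the sample labels, which give no batch.

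Counts were fitted with edgeR's quasi-likelihood test (edgeR 4.0.16, R 4.3.3) with TMM scaling (factors 0.823 to 1.19) over all 12 groups, with no covariate and 12 residual degrees of freedom. A gene was tested where 2 or more libraries reached 1 FPKM (6503 genes, with 623 left out), and p-values were adjusted by Benjamini-Hochberg over all of them within a comparison, at a threshold of 0.05. The 12 comparisons were WT over time (3) and each mutant against WT at each time (9). The fit was checked on simulated counts. Other scalings, filters and left-out libraries were tried, DESeq2 1.42.0 was run on the counts, and limma 3.58.1 was run on log2(FPKM + 1) and log2(FPKM + 0.1).

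The members and all gene lists were chosen with earlier results of these data known. Named genes were the 6 members, the 2 nearest genes on each side of each pair, up to 3 highest and 3 lowest called genes of a list in a comparison described, and the 5 genes most like SNZ1 and most like SNZ2 plus SNZ3 by Pearson's r (tested genes with mean FPKM of at least 10 in a group). TPN1, GCN4, PDX3 and BUD17 in mutants, and TRP4, LYS9, HIS3 and the amino acid genes named as lower in a mutant were named outside this rule, after their values were seen. A gene that the rule also names is not reported here by name. Sequences came from RefSeq's R64 assembly.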

Additional observations from a re-analysis of the deposited data

Results flagged for a closer look

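Some members moved in opposite directions in different groups, in FPKM in every library and in log2 fold change. For SNZ1, SNZ2, SNZ3 and SNO2 the differences between groups were not tested. For SNO1 and SNO3 they are given from the model as a description, without a call. At 3 h over 1 h SNZ1 gave 1.1 in rph1Δ, 0.341 in H3K36A and 0.421 in WT, but -0.323 in set2Δ. Over the same times SNZ2 gave 0.44 in rph1Δ and -0.286 in set2Δ, and SNZ3 gave 0.544 in rph1Δ and 0.711 in WT but -0.201 in set2Δ. SNO2 gave 0.518 in H3K36A and -0.358 in set2Δ. In rph1Δ over WT, SNO1 gave 0.395 at 0 h, but -1.12 at 1 h and -0.627 at 3 h, on 13 to 21 counts a library at 0 h. The model's difference between times was -1.52 ± 0.50 at 1 h and -1.02 ± 0.46 at 3 h. In set2Δ over WT, SNO3 gave 0.00612 at 1 h, which is near 0, and -0.502 at 0 h, a difference of 0.51 ± 0.31 in the model. At 1 h SNO3 was above WT in FPKM alone and overlapped it on the TMM scale.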

How the results depend on the processing

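Of 912 log2 fold changes of members recomputed under alternatives, 799 moved by less than the replicate spread, 113 by more, and 0 reversed a called direction. Calls of SNZ1 in WT at 1 h and 3 h over 0 h and in set2Δ and H3K36A at all 3 times held under every alternative run. Because SNZ1 was selected on these same values, this describes the processing only and lends the calls no support. The number of members called at 3 h over 1 h in WT was 4, and 2 with library totals or limma (either pseudocount, 1 or 0.1). In rph1Δ at 3 h it was 3, and 1 with library totals, limma (either pseudocount) or only the 2 groups compared, and 0 to 2 with a library left out. In set2Δ at 0 h it was 5, 3 with limma (either pseudocount), 2 with only the 2 groups compared, and 2 to 6 with a library left out. With a library left out it was 1 to 2 in rph1Δ at 1 h (2 with all libraries) and 3 to 4 in H3K36A at 3 h (5 with all). Of all genes, fitting only the 2 groups compared called 499 in rph1Δ at 0 h (314 with all groups), 1052 in rph1Δ at 3 h (1820) and 656 in set2Δ at 0 h (1435). With a library left out, 155 to 210 were called in rph1Δ at 0 h, 504 to 732 at 1 h (987 with all) and 548 to 2224 at 3 h. In the same way 888 to 1507 were called in set2Δ at 0 h and 1022 to 1269 in H3K36A at 0 h (1592 with all). Apart from the smaller samples and fits, the cause was not tested. Scaling by library totals shifted the median of all genes by -0.27 to 0.228, and member folds by up to 0.294.

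Replicate numbers are only numbers here, since deviations of equal numbers correlated at -0.0834 to 0.116. With a replicate block 4673 genes were called in WT at 1 h over 0 h (4687 without), and the block ended 1 member call, SNO1 in H3K36A at 3 h. At 13 counts a library, depth limits SNO1 most.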
